A study of Mus musculus with 18 samples.

Results

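The transfer RNAs that carry phenylalanine, tyrosine, tryptophan and cysteine were followed through 3 sorted cell fractions of the mouse brain, in the wild type and in a model of spinocerebellar ataxia type 2. They were taken by name, as every entry of the deposited count table that is of the tRNA type and is named for one of these 4 amino acids. This gave 79 gene copies of 407 cytoplasmic tRNA gene copies and of 203513 features in all. The copies fall into 4 anticodons, with 7 copies of tRNA-Phe-GAA, 10 of tRNA-Tyr-GTA, 8 of tRNA-Trp-CCA and 54 of tRNA-Cys-GCA. Copies of the same mature sequence were summed into an isodecoder, which is a set of tRNAs with the same anticodon and a body of its own. There were 36 such isodecoders, namely 3 for phenylalanine, 5 for tyrosine, 6 for tryptophan and 22 for cysteine.

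A tRNA reads a codon of the messenger RNA through its anticodon and brings the matching amino acid, which a dedicated synthetase has loaded onto its 3′ end. Phenylalanine, tyrosine and tryptophan are the aromatic residues of proteins, and cysteine is the thiol residue that forms disulphide bonds and belongs to glutathione. Tyrosine tRNA genes carry an intron that the tRNA splicing endonuclease removes, and cytoplasmic phenylalanine tRNA carries the bulky base wybutosine beside its anticodon. In the mouse the cysteine tRNA genes are a large and mostly clustered family. Fragments of tRNAs are also known from brain tissue and are formed when cells are stressed.

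The libraries came from 10-month-old mice on a C57BL/6 background, either wild type (WT) or homozygous for a knock-in of an expanded CAG repeat in Atxn2 (Atxn2-CAG100-KIN, hereafter KIN). Atxn2 encodes ataxin-2, an RNA-binding protein, and its expansion is the cause of the ataxia. From each brain, microglia were first held back with CD11b beads, astrocytes next with ACSA-2 beads, and neurons were what passed after the remaining non-neuronal and CD31-bearing cells were held back. The 6 groups were Astrocytes WT, Astrocytes KIN, Microglia WT, Microglia KIN, Neurons WT and Neurons KIN, with 3 libraries in each. According to the methods, KIN and WT mice were paired as littermates of one sex, and pairs of both sexes were used. The labels give neither the sex nor the pair, and they do not say which libraries came from the same brain. The main tests were therefore unpaired, and p-values measure the spread between these libraries. The neuronal fraction is defined by exclusion only, and each fraction may hold other cells.

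The 18 libraries held 1211118 to 4316748 counts, with the neuronal ones the smallest. Cytoplasmic tRNAs took 10.2% to 12.4% of the counts in astrocytes, 8.53% to 16.6% in microglia and 2.94% to 5.88% in neurons, except for 10.6% in Neurons WT replicate 2. The summed level of 3 microglial miRNAs (miR-142a-3p, miR-142a-5p, miR-223-3p) was 2835 to 5914 CPM (counts scaled to a common library total) in microglia and at most 48.5 CPM in astrocytes and 377 CPM in neurons. The summed level of 3 neuronal miRNAs (miR-124-3p, miR-128-3p, miR-138-5p) was 1036 to 3150 CPM in the astrocyte libraries and 48.7 to 228 CPM in the libraries labelled neurons, so these markers went against the label of the neuronal fraction. Erythroid miRNAs were at 43.7 to 303 CPM in neurons, against 17.3 to 131 CPM in the other fractions. Microglia KIN replicate 1 had the fewest features with a count, 13941, followed by Neurons WT replicate 1 with 17517 and Microglia WT replicate 2 with 17884. Levels below are CPM of the library total and are shares of a library. Fewer cells of a type and less RNA per cell cannot be told apart in such bulk samples.

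All 79 gene copies had at least one count, but the counts were very unequal. The members held 215200 counts over the 18 libraries, of which 76.1% were of cysteine tRNAs and 74.7% were of only 3 isodecoders, tRNA-Cys-GCA-3, tRNA-Cys-GCA-1 and tRNA-Cys-GCA-2. In levels per 100 bases of gene, averaged over the 18 libraries, tRNA-Cys-GCA stood at 3502 CPM, tRNA-Trp-CCA at 809 CPM, tRNA-Tyr-GTA at 197 CPM and tRNA-Phe-GAA at 60.1 CPM. Counts did not follow the number of gene copies. The isodecoder with the most genes, tRNA-Cys-GCA-4 with 29 copies, had 764 counts, whereas tRNA-Cys-GCA-3 with 4 copies had 112054, or 68.4% of all cysteine tRNA counts. The 2 copies of tRNA-Cys-GCA-1 had 13435 and 13460 counts, whereas the 5 copies of tRNA-Tyr-GTA-1 had 279 to 1029. Reads with several best matches were kept, so counts of near-identical copies and isodecoders are uncertain. The count of a read does not tell a whole tRNA from a fragment. At the low end, 14 isodecoders, 13 of them for cysteine, had under 100 counts in all, and 8 never exceeded 3 counts in any library.

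Cysteine tRNA was the most abundant of the 4 in every group, and it separated neurons from the other fractions. Astrocytes WT had 2601, 3567 and 2343 CPM of tRNA-Cys-GCA, and Astrocytes KIN had 2756, 2571 and 2601 CPM. Microglia WT had 4283, 2124 and 3643 CPM, and Microglia KIN had 2054, 5699.7 and 7060.4 CPM. The microglial libraries thus spanned 3.44-fold and the astrocytic ones 1.52-fold. Neurons WT had 225, 2353 and 306 CPM, and Neurons KIN had 479, 390.1 and 331 CPM. Of the 6 neuronal libraries 5 therefore lay below all glial libraries, and Neurons WT replicate 2 lay among them.

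Tryptophan tRNA was highest in microglia. Astrocytes WT had 336, 401 and 313 CPM of tRNA-Trp-CCA, and Astrocytes KIN had 369, 414 and 400.1 CPM. Microglia WT had 1155, 601 and 1121 CPM, and Microglia KIN had 578, 1668 and 2212 CPM, so that every microglial library was above every astrocytic one. Neurons WT had 71.8, 326 and 104 CPM, and Neurons KIN had 173, 128 and 109.7 CPM. Only Neurons WT replicate 2 reached the astrocytic range.

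Tyrosine tRNA differed least between the glial fractions. Astrocytes WT had 177, 187 and 169 CPM of tRNA-Tyr-GTA, and Astrocytes KIN had 228, 229 and 223 CPM. Microglia WT had 189, 224 and 175 CPM, and Microglia KIN had 265, 201 and 199 CPM, overlapping the astrocytes. Neurons WT had 36.3, 73.6 and 136 CPM, and Neurons KIN had 191, 136 and 124 CPM. Here Neurons WT replicate 2 lay inside its group, unlike for cysteine and tryptophan tRNA.

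Phenylalanine tRNA was the scarcest. Astrocytes WT had 32.1, 35.7 and 25.8 CPM of tRNA-Phe-GAA, and Astrocytes KIN had 42.5, 45.7 and 40.3 CPM. Microglia WT had 38.9, 63.6 and 36.3 CPM, and Microglia KIN had 87.4, 78.3 and 64.2 CPM. Neurons WT had 12.4, 70.02 and 24.9 CPM, and Neurons KIN had 33.3, 36.7 and 22.3 CPM. In both glial fractions all KIN libraries lay above all WT libraries, in microglia only by 64.2 against 63.6 CPM, and in neurons they overlapped. Of all tested features 10.3% in astrocytes and 6.58% in microglia did the same. As shares of the tRNA counts the microglial groups overlapped, with 0.0415% to 0.0562% in WT and 0.0388% to 0.0623% in KIN.

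**Figure D1:**
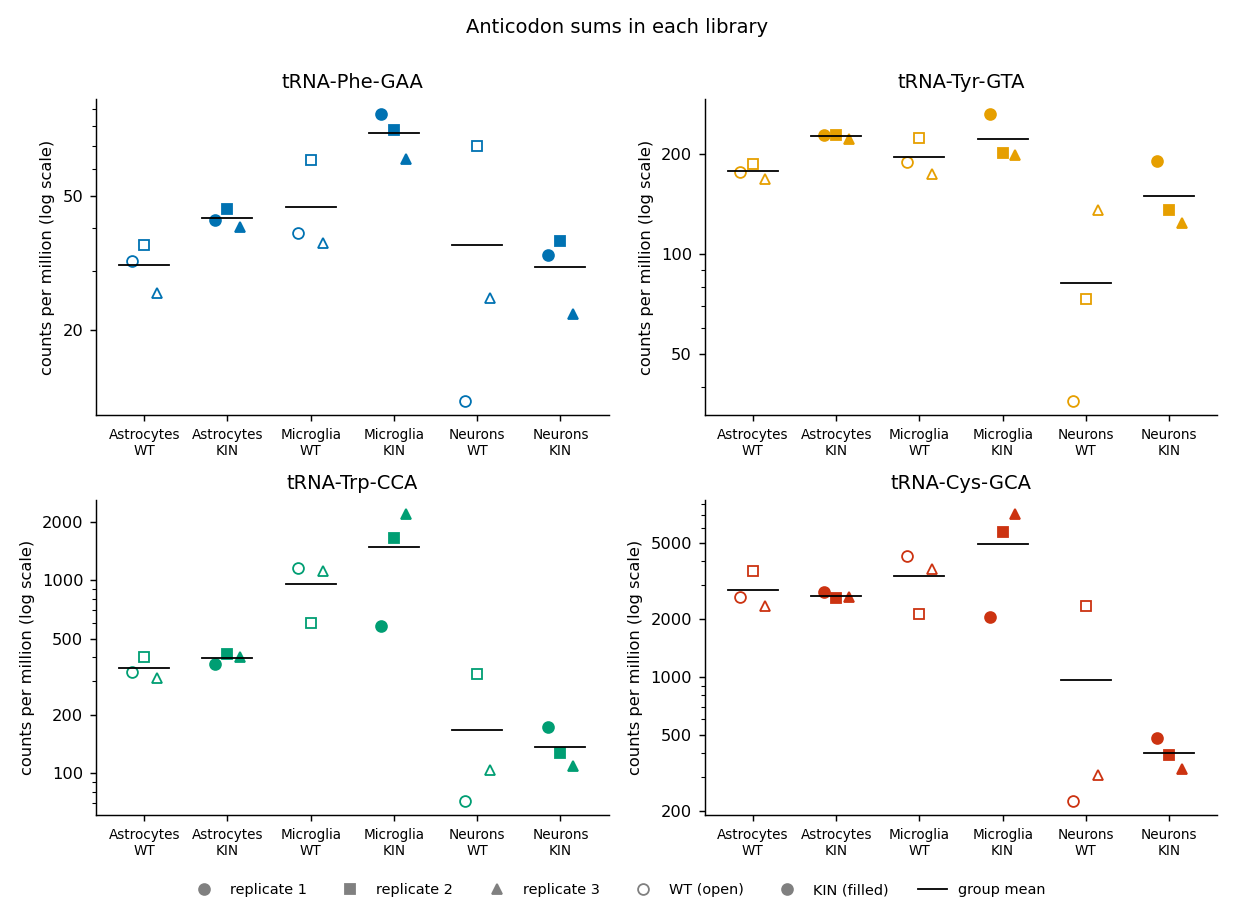
Level of each anticodon sum in CPM of the library (log axis) for the 18 libraries by group, with open symbols for WT, filled symbols for KIN, symbol shape for the replicate and a bar for the group mean. Cysteine and tryptophan tRNA ran from 2054 to 7060.4 and from 578 to 2212 in microglia with replicate 1 of KIN the lowest, whereas tyrosine tRNA stayed between 175 and 265 there.

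The first question was whether the fractions differ in these tRNAs within a genotype. Between microglia and astrocytes of WT mice, 8 of 24 tested isodecoders were called, 7 of them higher in microglia. Called means an adjusted p of at most 0.05 and a fold of at least 2 in either direction, by edgeR's quasi-likelihood test over all features, among which 32.7% were called and 12.0% were called higher. The 24 members had a median log2 fold change of 0.59, against -0.25 for all tested features and -0.41 for the 152 other cytoplasmic tRNA isodecoders. In KIN mice 10 of 23 were called, all higher in microglia, where 35.9% of all features were called and 14.2% were called higher. There the median was 0.94 for the members, 0.05 for all features and 0.27 for the other cytoplasmic tRNA isodecoders. Tryptophan carried most of it, with 4 of 6 isodecoders called higher in WT and 6 of 6 in KIN, whereas 0 of 5 tyrosine isodecoders were called in either genotype.

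As an anticodon, tRNA-Trp-CCA was higher in microglia than in astrocytes by 1.48 ± 0.23 (log2 fold change ± SE, edgeR adjusted p = 0.000391) in WT and by 2.05 ± 0.33 (edgeR adjusted p = 0.000243) in KIN. It was called in all 11 alternatives of each comparison, including the scaling to the cytoplasmic tRNA total. tRNA-Cys-GCA differed by 0.26 ± 0.24 (edgeR adjusted p = 0.407) in WT and by 1.04 ± 0.30 (edgeR adjusted p = 0.0125) in KIN. Without any one of 5 of the 6 KIN libraries the cysteine difference was no longer called, with edgeR adjusted p between 0.0548 and 0.149, and without Microglia KIN replicate 1 it was called at 1.37. tRNA-Phe-GAA differed by 0.70 ± 0.37 (edgeR adjusted p = 0.151) in WT and by 1.02 ± 0.23 (edgeR adjusted p = 0.00311) in KIN. The phenylalanine fold in KIN fell under 2 without Astrocytes KIN replicate 1 (0.93) or 3 (0.94) and without Microglia KIN replicate 1 (0.83) or 2 (0.98). tRNA-Tyr-GTA differed by 0.25 ± 0.26 (edgeR adjusted p = 0.453) in WT and by 0.15 ± 0.21 (edgeR adjusted p = 0.589) in KIN. The scale moved the whole KIN comparison. With the tRNA total the median of all tested features went from 0.05 to -0.45 and tRNA-Tyr-GTA to -0.36. With library totals they went to -0.12 and -0.033. The cysteine and phenylalanine folds in KIN lay close to the limit of a call and so depend on the scale too.

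The difference between glial fractions was shared by the tryptophan isodecoders and was uneven within cysteine. In WT all 6 tryptophan isodecoders were higher in microglia, by 0.74 to 3.20, with edgeR adjusted p of at most 0.05. Of 10 tested cysteine isodecoders 6 were higher. tRNA-Cys-GCA-5 (1.36 to 3.74 against 7.29 to 12.1 CPM) and tRNA-Cys-GCA-7 (5.76 to 7.49 against 8.20 to 14.1 CPM) were lower in Microglia WT without overlap. tRNA-Cys-GCA-3, the main cysteine isodecoder, had 2051, 2719 and 1820.4 CPM in Astrocytes WT and 2509, 1516 and 2142 CPM in Microglia WT, and the groups overlapped. tRNA-Cys-GCA-1, the next in level, had 156, 266 and 189 CPM in Astrocytes WT and 1107, 322 and 940.2 CPM in Microglia WT, without overlap. It was higher in microglia by 1.93 ± 0.34 (edgeR adjusted p = 0.00109). tRNA-Cys-GCA-2, a single gene, had 350.5, 524 and 299 CPM in Astrocytes WT and 603, 248 and 499.6 CPM in Microglia WT, again overlapping. tRNA-Trp-CCA-5, the main tryptophan isodecoder, had 149, 191 and 147 CPM in Astrocytes WT and 468, 253 and 451 CPM in Microglia WT. tRNA-Trp-CCA-1 had 25.4, 30.9 and 20.04 CPM in Astrocytes WT and 311, 95.01 and 306 CPM in Microglia WT. It was higher in microglia by 3.20 ± 0.37 (edgeR adjusted p = 4.1e-05).

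In the KIN fractions the same isodecoders stood out in 2 of 3 microglial libraries. tRNA-Cys-GCA-1 had 145, 161 and 142 CPM in Astrocytes KIN and 128, 1358 and 1705 CPM in Microglia KIN. tRNA-Trp-CCA-1 had 26.2, 27.9 and 27.4 CPM in Astrocytes KIN and 40.3, 424 and 585 CPM in Microglia KIN. Microglia KIN replicate 1 thus lay below all astrocyte libraries of KIN for the former and little above them for the latter. The fits gave 2.94 ± 0.61 (edgeR adjusted p = 0.00208) for tRNA-Cys-GCA-1 and 3.80 ± 0.66 (edgeR adjusted p = 0.000558) for tRNA-Trp-CCA-1. Both were called in all 11 alternatives in WT and in KIN.

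Neurons had lower levels of most of these tRNAs. In KIN, 14 of 22 tested isodecoders were called lower in neurons than in astrocytes, where 44.7% of all features were called and 24.3% were called lower, and 20 of 22 were called lower than in microglia, where 51.5% were called and 24.9% were called lower. The members had a median log2 fold change of -1.26 against astrocytes and -3.26 against microglia, and the other cytoplasmic tRNA isodecoders had -1.76 and -1.82. tRNA-Cys-GCA fell by 3.16 ± 0.17 (edgeR adjusted p = 1.04e-11) against astrocytes and fell by 4.19 ± 0.32 (edgeR adjusted p = 6.17e-11) against microglia. tRNA-Trp-CCA fell by 1.96 ± 0.21 (edgeR adjusted p = 1.49e-07) and fell by 4.003 ± 0.35 (edgeR adjusted p = 5.8e-10). tRNA-Tyr-GTA fell by 1.03 ± 0.21 (edgeR adjusted p = 0.000366) and fell by 1.17 ± 0.27 (edgeR adjusted p = 0.000877). Its fold came under the limit of a call against astrocytes without Astrocytes KIN replicate 2 (-0.92) or Neurons KIN replicate 2 (-0.97) or 3 (-0.81), and against microglia without Microglia KIN replicate 1 (-0.91) or Neurons KIN replicate 3 (-0.90). Scaled to the tRNA total, tyrosine and phenylalanine tRNA turned higher in neurons, by 0.63 and 0.75 against astrocytes and by 0.99 and 0.24 against microglia. With this scale 4 of 22 isodecoders were called against astrocytes, 1 of them higher, where 68.4% of all features were called. Against microglia 15 of 22 were called, 4 of them higher and 11 lower, where 76.6% of all features were called. With library totals 8 were called against astrocytes and 14 against microglia, all lower, where 45.7% and 52.3% of all features were called.

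In WT the neuronal comparisons changed with single libraries, and more members were called without Neurons WT replicate 2. With all libraries 3 of 24 isodecoders were called lower than in astrocytes, where 32.1% of all features were called and 19.6% were called lower. Without Neurons WT replicate 2 there were 11, where 1826 of 5470 features were called. With the replicate number as a block, a pairing that is not established, there were 10, all lower, where 36.5% of all features were called. tRNA-Cys-GCA (-2.69, edgeR adjusted p = 0.000297) and tRNA-Trp-CCA (-1.66, edgeR adjusted p = 0.00263) were then called too. Scaled to the tRNA total 3 were called, 2 of them higher, where 37.7% of all features were called. With this scale 12 of 24 members were positive in place of 6. Leaving out Astrocytes WT replicate 1 or 3 gave 0, where 1170 of 4910 and 1011 of 4874 features were called. Leaving out Astrocytes WT replicate 2 or Neurons WT replicate 1 gave 1, where 1758 of 5359 and 1251 of 5560 features were called. Against microglia 8 of 23 were called lower, where 30.1% of all features were called and 15.4% were called lower. Without Neurons WT replicate 2 there were 15, where 1630 of 4736 features were called. Microglia WT replicate 1 or 2 left out gave 4, where 927 of 4283 and 1258 of 4872 features were called. Microglia WT replicate 3 or Neurons WT replicate 1 left out gave 5, where 1033 of 4202 and 1105 of 4785 features were called. Against astrocytes tRNA-Cys-GCA was at -1.77 ± 0.83 (edgeR adjusted p = 0.122), and at -3.76 without Neurons WT replicate 2.

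**Figure D2:**
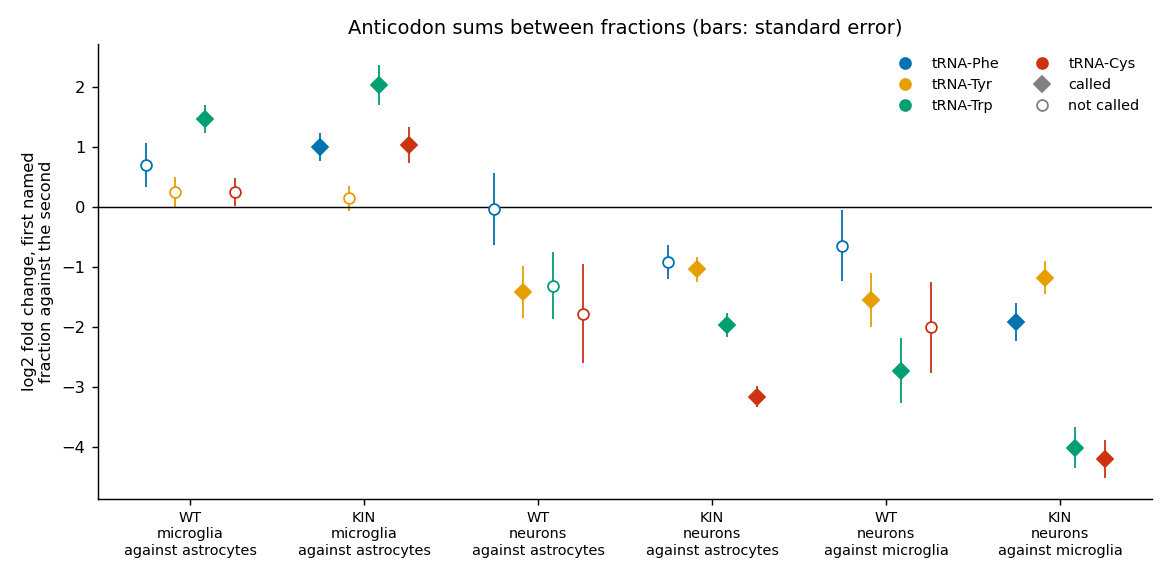
Log2 fold change of each anticodon sum between fractions within WT and within KIN, with bars for the standard error and filled diamonds for called differences. Tryptophan tRNA was called higher in microglia in both genotypes (1.48 and 2.05), and cysteine and tryptophan tRNA had the lowest values in KIN neurons (-4.19 and -4.003 against microglia).

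The second question was whether KIN differs from WT within a fraction. In astrocytes 0 of 24 tested isodecoders were called, where 8.23% of all features were. An unadjusted p under 0.05 was reached by 6 of the 24 members and by 1903 of all 5541 tested features. DESeq2 also called 0 members, where it called 7.71% of all features. The members had a median log2 fold change of 0.24, against -0.20 over all features and 0.26 over the other cytoplasmic tRNA isodecoders. For 6 members the 3 KIN libraries lay above the 3 WT libraries, where 10.3% of all features did so. They were tRNA-Trp-CCA-5, tRNA-Phe-GAA-1 and the tyrosine isodecoders tRNA-Tyr-GTA-1, tRNA-Tyr-GTA-2, tRNA-Tyr-GTA-3 and tRNA-Tyr-GTA-5. Other measures also separated these genotypes. The microglial miRNA sum was 25.0 to 48.5 CPM in Astrocytes KIN and 10.2 to 12.6 CPM in WT, and the oligodendrocyte miRNA sum (miR-219a-2-3p, miR-338-3p) was 1510 to 2148 CPM and 830.4 to 1496 CPM. Features with a count numbered 21874 to 23544 in KIN and 27657 to 32839 in WT. Their part in the tRNA values was not tested.

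Tyrosine tRNA had the smallest adjusted p of the 4 anticodons in astrocytes. tRNA-Tyr-GTA, whose values are given above, was higher in KIN by 0.51 ± 0.13 (edgeR adjusted p = 0.0425), under the fold of 2 that a call needs, and without overlap between groups. Without any one of Astrocytes WT replicate 1 or 3 or Astrocytes KIN replicate 1, 2 or 3 its edgeR adjusted p was 0.107 to 0.167, and without Astrocytes WT replicate 2 it was 0.00348. Over 13 alternatives this p ran from 0.00348 to 0.509. tRNA-Tyr-GTA-3, its main isodecoder, had 83.0, 89.7 and 83.2 CPM in WT and 110.2, 110.9 and 104 CPM in KIN, a difference of 0.49 ± 0.15 (edgeR adjusted p = 0.063). The highest fold among members was that of tRNA-Tyr-GTA-5, with 5.41, 3.01 and 3.34 CPM in WT and 6.98, 5.57 and 7.26 CPM in KIN, at 0.91 ± 0.35 (edgeR adjusted p = 0.0999).

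The other anticodons did not pass the test in astrocytes. tRNA-Phe-GAA differed by 0.61 ± 0.23 (edgeR adjusted p = 0.0942) and tRNA-Trp-CCA by 0.32 ± 0.15 (edgeR adjusted p = 0.154). tRNA-Phe-GAA-1 had 28.0, 31.4 and 23.98 CPM in WT and 36.6, 42.4 and 35.5 CPM in KIN, and tRNA-Phe-GAA-3 had 2.23, 2.51 and 1.21 CPM in WT and 2.62, 2.23 and 3.76 CPM in KIN. tRNA-Cys-GCA differed by 0.04 ± 0.16 (edgeR adjusted p = 0.879). tRNA-Cys-GCA-3 was at 0.06 ± 0.15 (edgeR adjusted p = 0.822), and tRNA-Cys-GCA-1 had the lowest fold of the members, -0.31 ± 0.21 (edgeR adjusted p = 0.322).

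The direction of these astrocytic values depended on the scaling. With factors from mature miRNA alone the median of all features moved by -0.70 and tRNA-Phe-GAA, tRNA-Tyr-GTA, tRNA-Trp-CCA and tRNA-Cys-GCA turned to -0.10, -0.21, -0.37 and -0.63. With the tRNA total as the scale the median of all features moved by -0.30, and 11 of 24 members were positive in place of 18. The median member lay 0.44 above the median of all features.

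In microglia 2 of 24 isodecoders were called, both higher in KIN, where 6.35% of all features were called and 1.82% were called higher. The members had a median of 0.75, against -0.09 over all features and 0.92 over the other cytoplasmic tRNA isodecoders, of which 3 of 152 were called. All 24 members had a positive fold change, as did 22 with library totals, 19 with miRNA factors and 6 with the tRNA total as the scale. The called ones were tRNA-Cys-GCA-7 and tRNA-Trp-CCA-3. For 3 members, tRNA-Cys-GCA-5, tRNA-Cys-GCA-7 and tRNA-Cys-GCA-8, the KIN libraries lay above the WT libraries, where 6.58% of all features did so. Marker sums separated the microglial genotypes as well, and their part in the tRNA values was not tested. In KIN and WT the neuronal sum was 47.01 to 55.1 and 60.7 to 159 CPM, and the neural lineage sum (miR-9-5p, miR-9-3p) was 59.1 to 68.6 and 82.3 to 245 CPM. The oligodendrocyte sum was 22.6 to 32.7 and 19.3 to 21.5 CPM, and the erythroid sum (miR-451a, miR-144-3p, miR-486a-5p) was 28.6 to 131 and 17.3 to 22.2 CPM.

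tRNA-Cys-GCA-7, a cysteine isodecoder with 1 gene, had 7.49, 5.76 and 7.09 CPM in Microglia WT and 9.85, 18.5 and 24.2 CPM in Microglia KIN. It rose by 1.62 ± 0.35 (edgeR adjusted p = 0.0231), and the lowest KIN library was above the highest WT library. tRNA-Trp-CCA-3, a tryptophan isodecoder with 2 genes, had 126, 102 and 115 CPM in WT and 125, 227 and 270.5 CPM in KIN. It rose by 1.10 ± 0.26 (edgeR adjusted p = 0.034), although Microglia KIN replicate 1 was no higher than the highest WT library. Both were also called by DESeq2. Neither was called in one fit of all 18 libraries, with a replicate block, with library totals or with factors from mature miRNA alone, nor relative to the tRNA total, where tRNA-Cys-GCA-7 was at 0.65 (adjusted p = 0.234) and tRNA-Trp-CCA-3 at 0.14 (adjusted p = 0.683). Over 13 alternatives the adjusted p of tRNA-Cys-GCA-7 ran from 0.00163 to 0.234 and that of tRNA-Trp-CCA-3 from 0.00225 to 0.683.

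The number of calls in microglia moved with every library. It was 0 without Microglia WT replicate 1 or 3 and without Microglia KIN replicate 2 or 3. Over all features 4 of 4142, 15 of 4047, 28 of 4536 and 12 of 4580 were then called, in the same order. It was 6 without Microglia WT replicate 2 and 8 without Microglia KIN replicate 1, where 788 of 4702 and 344 of 4759 features were called. The number of calls thus moved over all features too. Without Microglia KIN replicate 1 the 8 were tRNA-Cys-GCA-2, tRNA-Cys-GCA-3, tRNA-Cys-GCA-7, tRNA-Trp-CCA-1, tRNA-Trp-CCA-3, tRNA-Trp-CCA-4, tRNA-Trp-CCA-5 and tRNA-Trp-CCA-6, all higher in KIN. Without it tRNA-Trp-CCA was higher by 1.24 and tRNA-Cys-GCA by 1.15 and both passed the call, with edgeR adjusted p of 0.0135 and 0.0199. Without Microglia WT replicate 2, tRNA-Phe-GAA passed at 1.42 with edgeR adjusted p of 0.00428.

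With all 6 microglial libraries no anticodon passed. tRNA-Phe-GAA differed by 0.95 ± 0.33 (edgeR adjusted p = 0.109), tRNA-Trp-CCA by 0.91 ± 0.36 (edgeR adjusted p = 0.153), tRNA-Cys-GCA by 0.84 ± 0.35 (edgeR adjusted p = 0.174) and tRNA-Tyr-GTA by 0.43 ± 0.27 (edgeR adjusted p = 0.39). Scaled to the tRNA total the last 3 turned to -0.13, -0.20 and -0.47. The tRNA pool took 14.0% to 16.6% of the counts in Microglia KIN and 8.53% to 11.3% in Microglia WT. tRNA-Cys-GCA-3 was at 0.87 ± 0.29 (edgeR adjusted p = 0.0935) and tRNA-Cys-GCA-1 at 0.71 ± 0.65 (edgeR adjusted p = 0.593). tRNA-Cys-GCA-16 had the lowest fold, 0.16 ± 0.65 (edgeR adjusted p = 0.936). The median member lay 0.84 above the median of all features.

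**Figure D3:**
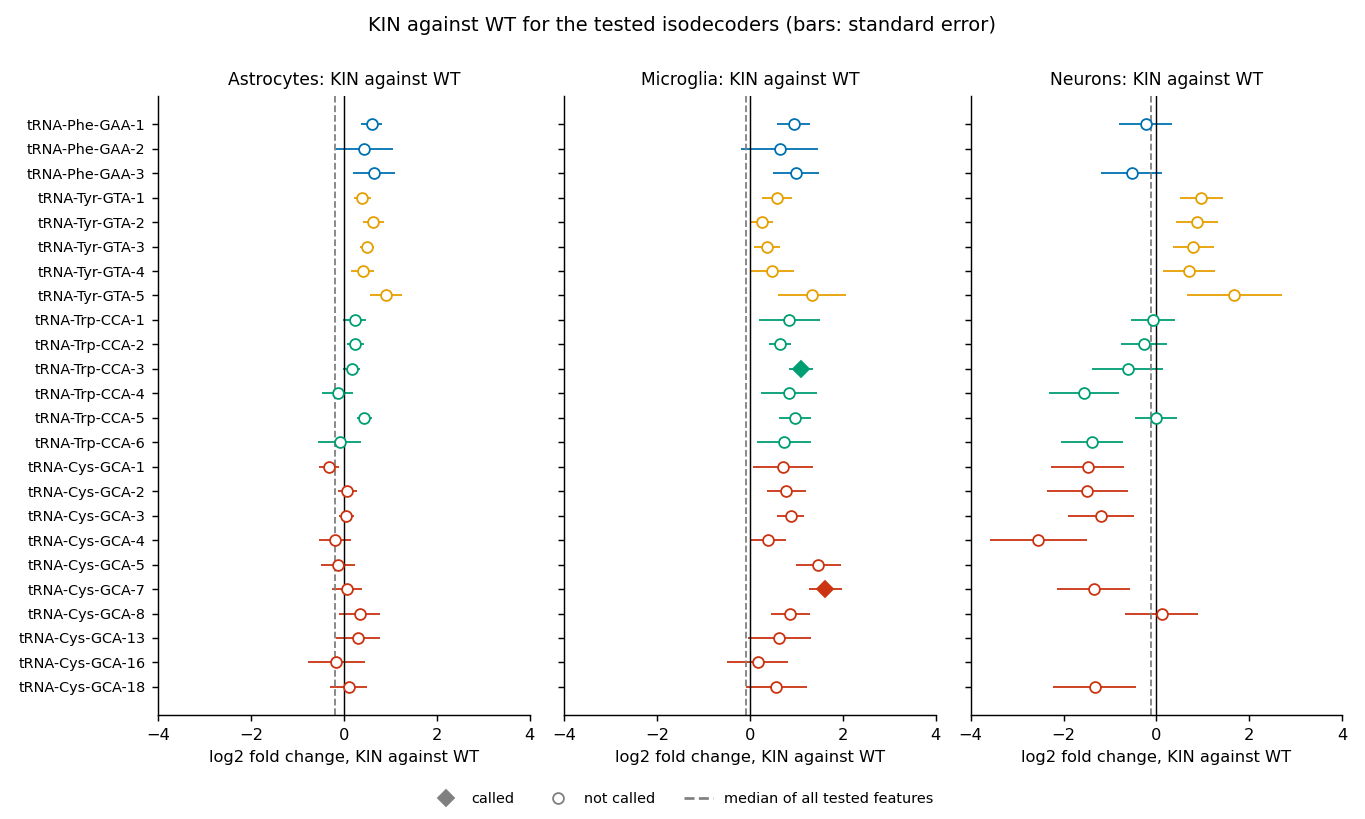
Log2 fold change of KIN against WT for each tested isodecoder in the 3 fractions, coloured by amino acid, with bars for the standard error, filled diamonds for called differences and a dashed line at the median of all tested features. All 24 members were positive in microglia with 2 called (6 positive with the tRNA total as the scale), 18 of 24 were positive in astrocytes and 6 of 20 in neurons with 0 called in either.

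In neurons 0 of 20 tested isodecoders were called by edgeR, as were 0% of all features, and DESeq2 called 0 too. An unadjusted p under 0.05 was reached by 1 member and by 210 of all 4381 tested features. The median was -0.40 for the members, -0.12 over all features and -0.42 over the other cytoplasmic tRNA isodecoders. Amino acids parted in direction, since all 5 tyrosine isodecoders were positive and all 6 tryptophan isodecoders were negative, but none passed. tRNA-Tyr-GTA was at 0.88 ± 0.41 (edgeR adjusted p = 0.852) and tRNA-Cys-GCA at -1.31 ± 0.73 (edgeR adjusted p = 0.852). tRNA-Trp-CCA was at -0.32 ± 0.50 (edgeR adjusted p = 0.92) and tRNA-Phe-GAA at -0.26 ± 0.55 (edgeR adjusted p = 0.947).

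The negative neuronal values came with Neurons WT replicate 2. Without it tRNA-Cys-GCA was at 0.56, tRNA-Trp-CCA at 0.61 and tRNA-Phe-GAA at 0.70, and 18 of 19 tested members were positive. tRNA-Cys-GCA-4, the isodecoder with 29 genes, had the lowest fold, with 5.78, 94.6 and 2.62 CPM in WT and 7.68, 4.53 and 6.19 CPM in KIN, at -2.54 ± 1.05 (edgeR adjusted p = 0.864) and at 0.52 without that library. tRNA-Tyr-GTA-5 had the highest, with no count in 2 WT libraries, 3.93 CPM in the third and 6.83, 1.24 and 4.95 CPM in KIN, at 1.68 ± 1.03 (edgeR adjusted p = 0.864). Neurons WT replicate 2 also had the highest erythroid miRNA sum of all libraries, 303 CPM, and the highest oligodendrocyte miRNA sum among neurons, 74.1 CPM against at most 5.97 CPM in the other 5. Their part in the result was not tested.

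The third question was whether the KIN effect differs between microglia and astrocytes. Of 24 members 0 were called in the interaction test of edgeR, where 0.377% of all features were. An unadjusted p under 0.05 was reached by 4 members and by 695 of all 6899 tested features. DESeq2 called 1 member, tRNA-Cys-GCA-7, where it called 1.99% of all features. The edgeR difference of effects for tRNA-Cys-GCA-7 was 1.57 ± 0.52 (adjusted p = 0.204), and for tRNA-Trp-CCA-3 it was 0.94 ± 0.35 (adjusted p = 0.295). At the level of anticodons it was 0.82 ± 0.43 for tRNA-Cys-GCA, 0.61 ± 0.44 for tRNA-Trp-CCA, 0.33 ± 0.42 for tRNA-Phe-GAA and -0.09 ± 0.31 for tRNA-Tyr-GTA, with edgeR adjusted p of 0.573 to 0.991. The members called in microglia are therefore not shown to respond differently in astrocytes.

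As a share of the cytoplasmic tRNA counts, the members made up 2.62% to 3.77% in astrocytes, 2.13% to 6.05% in microglia and 1.17% to 2.67% in neurons. The share of each amino acid was compared between KIN and WT in each fraction by a two-sided exact permutation test. In 3 of these 12 comparisons the libraries did not overlap. The other amino acids were not compared in this way, so this count has no background and is not shown to be particular to the members. In astrocytes phenylalanine had a mean share of 0.0287% in WT and 0.0353% in KIN, and tyrosine had 0.164% and 0.187%, with all 3 KIN libraries above all 3 WT libraries. In microglia tyrosine had 0.202% in WT and 0.146% in KIN, with all 3 KIN libraries below. Each had an exact p of 0.1, the smallest that 3 against 3 libraries allow, and 0.4 after adjustment over the 12, so none passed.

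Within microglia the most uneven pattern was between libraries of one group. tRNA-Cys-GCA-18, tRNA-Trp-CCA-4 and tRNA-Trp-CCA-6 were chosen for this after their values were seen. In Microglia KIN replicate 1, tRNA-Cys-GCA-18, tRNA-Trp-CCA-1, tRNA-Cys-GCA-1, tRNA-Trp-CCA-6 and tRNA-Trp-CCA-4 were 10.7-fold, 8.54-fold, 8.49-fold, 6.92-fold and 6.92-fold lower than the mean of the other 5 microglial libraries. They ranked 2, 4, 5, 8 and 9 from the lowest of 1394 features by this ratio. The median over tRNA isodecoders was a ratio of 1.33, so the tRNA pool of that library was not low. All 5 tyrosine isodecoders, tRNA-Phe-GAA-1 and tRNA-Cys-GCA-8 had their highest microglial value in this very library. The ratios of tRNA-Tyr-GTA-2, tRNA-Tyr-GTA-3, tRNA-Tyr-GTA-1 and tRNA-Phe-GAA-1 were 1.14, 1.33, 1.44 and 1.57. They thus lay around the median of the tRNA isodecoders, with ranks of 55 to 85 among 125. Microglia WT replicate 2 had the second lowest value for all 5 of the uneven isodecoders. tRNA-Cys-GCA-18 had 33.1, 9.21 and 28.4 CPM in WT and 2.86, 31.7 and 51.0 CPM in KIN, and tRNA-Trp-CCA-4 had 77.5, 28.8 and 85.4 CPM in WT and 13.3, 118 and 152 CPM in KIN.

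Ratios within an anticodon show this free of library scaling. tRNA-Cys-GCA-1 per tRNA-Cys-GCA-3 was 0.0667 to 0.104 in the 6 astrocyte libraries and 0.138 to 0.215 in the 6 neuronal ones. In microglia it was 0.441, 0.212 and 0.439 in WT and 0.0763, 0.388 and 0.397 in KIN, so Microglia KIN replicate 1 lay in the astrocytic range. tRNA-Trp-CCA-1 per tRNA-Trp-CCA-2 was 0.284 to 0.372 in astrocytes. In microglia it was 2.06, 0.851 and 2.17 in WT and 0.336, 2.24 and 2.70 in KIN, again with that library in the astrocytic range. Its microglial miRNA sum was 3097 CPM, within the range of the others, and its neuronal miRNA sum was the lowest of the microglia at 47.01 CPM. Its endothelial miRNA sum (miR-126a-3p, miR-126a-5p) was 118 CPM, against 208 to 265 CPM in the other 5. The part of cell makeup or of the number of detected features in this pattern was not tested.

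**Figure D4:**
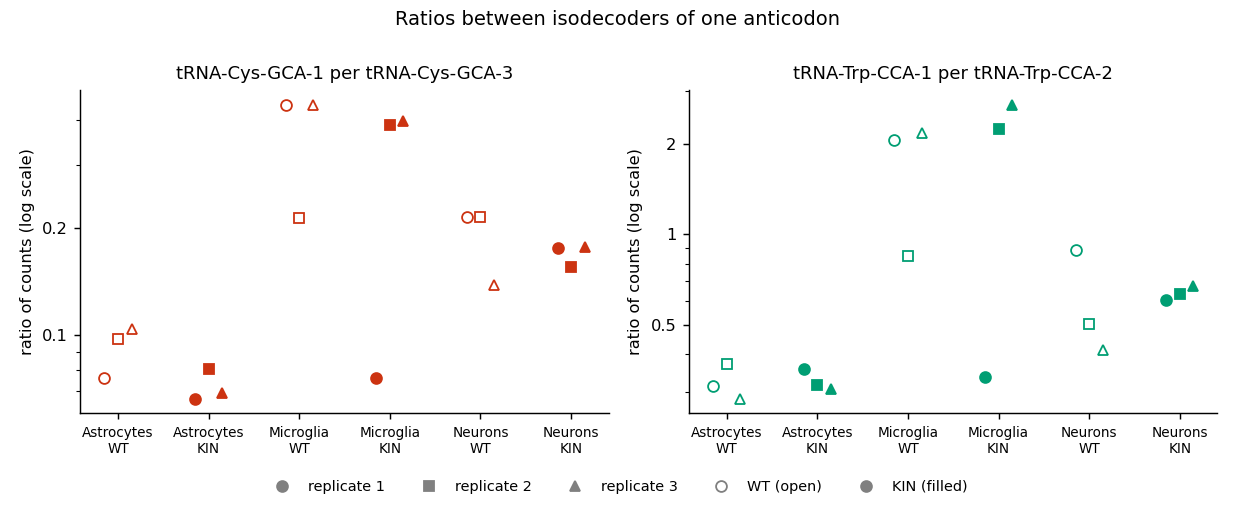
Ratio of counts between isodecoders with the same anticodon in each of the 18 libraries by group (log axis), with open symbols for WT, filled symbols for KIN and symbol shape for the replicate. Microglia KIN replicate 1 had 0.0763 for tRNA-Cys-GCA-1 per tRNA-Cys-GCA-3 and 0.336 for tRNA-Trp-CCA-1 per tRNA-Trp-CCA-2, whereas the other 2 KIN microglial libraries had 0.388 and 0.397 and 2.24 and 2.70.

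Mitochondria make tRNAs of their own for the same amino acids, and these are the tRNAs whose sequences were at hand. They are printed from the reference transcripts (GENCODE vM39 on GRCm39) as the DNA of the gene strand, with the anticodon in capitals. mt-Tf, for phenylalanine, lies at chrM:1-68 on the plus strand, mt-Tw, for tryptophan, at chrM:4950-5016 on the plus strand, mt-Tc, for cysteine, at chrM:5192-5257 on the minus strand, and mt-Ty, for tyrosine, at chrM:5260-5326 on the minus strand.
mt-Tf: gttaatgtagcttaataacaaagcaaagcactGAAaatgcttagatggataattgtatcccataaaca
mt-Ty: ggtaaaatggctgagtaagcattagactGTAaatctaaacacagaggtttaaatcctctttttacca
mt-Tw: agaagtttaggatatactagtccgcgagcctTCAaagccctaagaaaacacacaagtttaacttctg
mt-Tc: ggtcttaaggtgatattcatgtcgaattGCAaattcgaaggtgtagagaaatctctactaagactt

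The mitochondrial tRNAs had another order of fractions than their cytoplasmic counterparts. mt-Tw had 1596, 1756 and 1528 CPM in Astrocytes WT and 163, 202 and 156 CPM in Microglia WT, the reverse of tRNA-Trp-CCA. All 4 were called lower in microglia than in astrocytes in WT, with log2 fold changes of -1.77 (mt-Tc) to -3.12 (mt-Tw). They were called lower in KIN too, with -1.12 to -2.28 for the same genes. Of all features 32.7% in WT and 35.9% in KIN were called in either direction. Between KIN and WT 0 of the 4 were called in any fraction by edgeR, with adjusted p of at least 0.0977, while an unadjusted p under 0.05 was reached by mt-Tw and mt-Ty in astrocytes and by mt-Tc in microglia. Neurons WT replicate 2 had 862 CPM of mt-Tw against 36.3 and 111 CPM in the other WT neuronal libraries. That library was thus high in mitochondrial as well as in cytoplasmic tRNA.

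Of the genes that act on these tRNAs, a list of synthetases, wybutosine enzymes, splicing enzymes and factors for tRNA ends and export was examined. None of the transcripts of the synthetases, the wybutosine enzymes or the splicing enzymes had counts enough to be tested in any comparison, with Yars1, the tyrosyl-tRNA synthetase, the highest at 62 counts in all. Short-RNA libraries hold few reads of messenger RNA. Rpph1, the RNA part of RNase P, which trims the 5′ end of tRNAs, had 14726 counts and was tested. It was at 0.55 ± 0.19 (edgeR adjusted p = 0.0755) in astrocytes, at -0.70 ± 0.26 (edgeR adjusted p = 0.123) in microglia and at -0.10 ± 0.25 (edgeR adjusted p = 0.959) in neurons for KIN against WT. Of 27 listed transcripts for tRNA ends and export, only 1 in WT and 2 in KIN were tested between neurons and another fraction. These were called higher in neurons than in astrocytes and than in microglia. In WT 32.1% and 30.1% of all features were called, with 719 of 5757 and 739 of 5010 called higher. In KIN 44.7% and 51.5% were called, with 986 of 4847 and 1255 of 4726 called higher. So few transcripts do not stand for the list.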

How the data were processed

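Small RNA was sequenced by the submitters with a kit for short RNAs from 18 libraries (3 fractions, 2 genotypes, 3 libraries each). According to the methods and the processing notes, reads were trimmed with cutadapt 4.6, aligned with Bowtie2 2.4.4 in rounds against miRNAs, tRNAs, piRNAs, other non-coding RNAs and messenger RNAs (mm39) and counted with HTSeq 2.0.2 without strand and without a mapping quality limit. A tRNA read is therefore one that no miRNA took first, and a read that matches several copies equally well was still counted. Whether molecular identifiers were collapsed is not given in the sources used here. The deposited raw counts per feature were used. The table also holds the authors' normalized values (36 per-library columns) and 15 columns of their own comparisons, with fold changes and p-values, none of which was used. No sequence was available here for the cytoplasmic members, and none is printed.

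Copies were summed per isodecoder and per anticodon before any filter. Features reaching 5 counts in 2 or more libraries of a comparison were tested with edgeR 4.0.16 (R 4.3.3, limma 3.58.1), by the quasi-likelihood test with TMM factors, in a fit of its own for each comparison, and p-values were adjusted by Benjamini-Hochberg over all features. SE is the log2 fold change over the root of F. Levels are CPM of the library total, while fold changes also use TMM factors. Alternatives were DESeq2 1.42.0, other scalings, no filter, copies kept apart, one fit of all 18 libraries, a replicate block and leaving out each library. Same-numbered WT neuron and astrocyte libraries deviated together (correlations of 0.181, 0.380 and 0.176 over 3474 features), and the fractions were isolated from a single brain. The replicate number was therefore taken as a possible pairing there, and the blocked values stand beside that result. The labels do not give this pairing, and it was chosen from these same data. Libraries with different numbers were not correlated, so these values do not show that a number marks a brain. WT astrocyte and microglia libraries had 0.381, 0.389 and 0.0545, and no pairing was taken there. The scripts were tested on simulated counts. Members and lists were chosen with earlier results of these data known. Named isodecoders were the 2 with the highest mean CPM per anticodon (4 for cysteine), those called in KIN against WT or in the interaction, and those with the highest or lowest fold in each fraction. Members whose groups do not overlap and those called without 1 library were named after their values were seen, as was tRNA-Trp-CCA-2. Replicate libraries differed by more than counting noise.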

Additional observations from a re-analysis of the deposited data

How the results depend on the processing

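For KIN against WT in microglia the 2 called isodecoders became 0 with library totals, the tRNA total, factors from mature miRNA alone, one fit of all 18 libraries or the replicate block, and 0 to 8 when 1 library was left out. Over all features 3.61%, 22.4%, 8.55%, 4.34% and 4.18% were called in these alternatives. With 1 library left out 4 of 4142 to 788 of 4702 features were called. In neurons 1 was called with no filter, where 0.151% of all features were called. Against WT astrocytes, 3 called isodecoders in WT neurons became 6 with DESeq2, 7 with no filter, 10 with the replicate block and 0 to 11 with 1 library left out. Over all features 28.6%, 2.76% and 36.5% were called, and 1011 of 4874 to 1826 of 5470 with 1 library left out. Against WT microglia, 8 became 4 with library totals, 13 with no filter, 13 with the replicate block and 4 to 15 with 1 library left out. Over all features 27.5%, 2.15% and 31.2% were called, and 927 of 4283 to 1630 of 4736 with 1 library left out. Against KIN astrocytes, 14 in KIN neurons became 8 with library totals and 4 with the tRNA total, where 45.7% and 68.4% of all features were called. The difference of KIN effects went from 0 to 1 with DESeq2, where 1.99% of all features were called. The cause was not tested.

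Directions turned as follows (log2 fold changes of KIN against WT unless stated). With miRNA factors, in astrocytes, tRNA-Phe-GAA was -0.10, tRNA-Tyr-GTA -0.21, tRNA-Trp-CCA -0.37, tRNA-Cys-GCA -0.63, tRNA-Tyr-GTA-3 -0.21 and tRNA-Cys-GCA-3 -0.62, and tRNA-Cys-GCA-16 in microglia was -0.34. With library totals, tRNA-Cys-GCA was -0.10 and tRNA-Cys-GCA-3 -0.081 in astrocytes, tRNA-Cys-GCA-16 was -0.088 in microglia, tRNA-Phe-GAA was 0.22 in WT neurons against astrocytes and tRNA-Tyr-GTA was -0.033 in KIN microglia against astrocytes. With the tRNA total, tRNA-Cys-GCA was -0.26 and tRNA-Cys-GCA-3 -0.24 in astrocytes. In microglia tRNA-Tyr-GTA was then -0.47, tRNA-Trp-CCA -0.13, tRNA-Cys-GCA -0.20, tRNA-Cys-GCA-16 -0.80, tRNA-Cys-GCA-3 -0.12 and tRNA-Cys-GCA-1 -0.37, and in neurons tRNA-Phe-GAA was 0.11 and tRNA-Trp-CCA 0.013. Between fractions it gave tRNA-Phe-GAA 0.94 and tRNA-Tyr-GTA 0.0018 in WT neurons against astrocytes, tRNA-Phe-GAA 0.23 against WT microglia, and tRNA-Tyr-GTA -0.36 in KIN microglia against astrocytes. In KIN neurons it gave tRNA-Phe-GAA 0.75 and tRNA-Tyr-GTA 0.63 against astrocytes and 0.24 and 0.99 against microglia. For the difference of KIN effects it gave tRNA-Phe-GAA -0.19 and tRNA-Trp-CCA -0.14, and DESeq2 gave tRNA-Tyr-GTA 0.0499.

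As shares of all counts of a library, the KIN minus WT differences turned to 0.00257 (tyrosine), 0.0527 (tryptophan) and 0.159 (cysteine) percentage points in microglia and to -0.000502 (phenylalanine) and -0.00302 (tryptophan) in neurons.

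With 1 library left out, KIN against WT ranged from -0.13 to 0.30 for tRNA-Cys-GCA and from -0.10 to 0.29 for tRNA-Cys-GCA-3 in astrocytes, and from -0.72 to 0.50 for tRNA-Cys-GCA-16 in microglia. In neurons it ranged from -0.65 to 0.70 for tRNA-Phe-GAA, -0.68 to 0.61 for tRNA-Trp-CCA, -1.78 to 0.56 for tRNA-Cys-GCA and -3.08 to 0.52 for tRNA-Cys-GCA-4. tRNA-Tyr-GTA ranged from -0.034 to 0.48 in WT and from -0.084 to 0.19 in KIN for microglia against astrocytes, and from -0.36 to 0.064 for the difference of KIN effects. tRNA-Phe-GAA in WT neurons against astrocytes ranged from -1.07 to 0.39. Share differences ranged from -0.00985 to 0.0212 (tryptophan, astrocytes), -0.00243 to 0.00936 (phenylalanine, microglia), -0.337 to 0.173 (tryptophan, microglia), -1.30 to 0.372 (cysteine, microglia), -0.00158 to 0.0109 (phenylalanine, neurons), -0.0130 to 0.0264 (tryptophan, neurons) and -0.724 to 0.0509 (cysteine, neurons).

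Apart from WT neurons and astrocytes, no comparison had all 3 same-numbered pairs correlated above 0.1 in their deviations from the group means. The range was -0.336 to 0.235 across genotypes, 0.0163 to 0.389 across WT fractions and -0.314 to 0.258 across KIN fractions. With the replicate block tRNA-Phe-GAA in neurons turned to 0.032. Low counts limit tRNA-Tyr-GTA-5, tRNA-Cys-GCA-5, tRNA-Cys-GCA-7, tRNA-Cys-GCA-8, tRNA-Cys-GCA-16 and the neuronal libraries. Among these, tRNA-Cys-GCA-7 was called in microglia. The 3 libraries per group limit every comparison.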
